A study of Saccharomyces cerevisiae with 6 samples.

Results

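Mediator and the general transcription factors are the proteins that place RNA polymerase II on promoters, and the genes of their subunits were followed here from growth into quiescence in budding yeast. The 43 genes were chosen by systematic name, not by value, from the 9891 rows of the deposited table. They are 25 Mediator genes and 18 genes of the general factors, here called basal factors (TBP, TFIIA, TFIIB, TFIIE, TFIIF and TFIIH). All 43 lie on the nuclear chromosomes, on 13 of them, all are protein-coding, 2 hold an intron (SRB2 and KIN28), and none overlaps another annotated gene in the R64 annotation.

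RNA-seq was made from 3 libraries of log-phase cells, grown at 30 C to an OD600 of 0.8 to 1.0, and 3 libraries of quiescent cells, the fraction of a day 7 stationary culture that was collected and purified again on Percoll gradients. All 6 libraries came from the MATa strain YCH406, in rich medium with added adenine and ampicillin. In both states the strain lacked both chromosomal H2A-H2B gene pairs, as (hta1-htb1)∆::LEU2 and (hta2-htb2)∆::TRP1. It carried HTA1-HTB1 with URA3 on the plasmid pSAB6 and HTA1-Flag with HTB1 and HIS3 on the plasmid pZS145, and RPB3, an RNA polymerase II subunit, was tagged as RPB3-9Myc::hphNT1. The other alleles were his3∆200 and leu2∆1, with ura3-52 and trp1∆. The protocols call the 3 libraries of each state biological replicates.

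In budding yeast, Mediator bridges activators and the polymerase. Its head and middle modules contact the polymerase and its general factors, its tail receives activators, and the separable CDK module, built around the kinase Ssn3 and its cyclin Ssn8, can block the polymerase's access to the core. The general factors assemble at the core promoter: TBP bends the DNA, TFIIA and TFIIB stabilise it and position the polymerase, TFIIF and TFIIE join with it, and TFIIH opens the DNA with its translocase and phosphorylates the polymerase tail with its own kinase and cyclin, Kin28 and Ccl1.

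Total counts were 8894585 to 14213993 per library, and a gene of the 43 had 8 to 2161 reads in a library, so counting noise is large for the least expressed members. The states carried their own markers: all 5 of 5 quiescence genes rose (HSP12, HSP26, SPG1, SPG4 and SIP18) and all 5 of 5 growth genes fell (ACT1, TDH3, ENO2, RPP0 and PMA1) in the edgeR quasi-likelihood test. Levels are given as normalized CPM, which are reads scaled to library size with TMM factors, or as TPM, which also divides by gene length and is used wherever levels of different genes are set side by side. Changes are log2 fold changes of CPM, quiescent minus log, with their standard error (SE), and a gene is said to have risen or fallen at an edgeR adjusted p under 0.05 over all 7305 rows tested. Fewer cells holding a transcript and less of it per cell cannot be told apart in such bulk samples, and no spike-in row was used, so every change is relative to the rest of the RNA. The median change of all 5608 genes tested was -0.21 with TMM and -0.98 on the log2(TPM + 1) scale. A gene with no change under TMM therefore tends to lie below 0 on the log2(TPM + 1) scale.

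Between the 2 states, 16 of the 43 genes rose, 9 fell and 18 did not pass. The background was a rise in 31.8% and a fall in 41.0% of the 5608 genes, beside 37.2% and 20.9% of the 43, and 72.8% of all genes passed in either direction. The members' median change was 0.24 and ran from -3.68 (SRB2) to 1.86 (CCL1). On the log2(TPM + 1) scale only 1 of the 43, CCL1, rose and 24 fell, with backgrounds of 14.2% and 60.1%, so the rises given below hold under TMM scaling and, except that of CCL1, did not pass on that scale. The balance of rises and falls also turned with total-count scaling, to 8 rises and 11 falls, and was 11 to 11 with no filter on low values. Of the 12 subunit genes of RNA polymerase II, 0 rose and 11 fell in the same test, with a median of -2.07. CPM in the 3 quiescent libraries lay wholly above or wholly below the 3 log libraries for 28 of the 43 genes, 18 of them higher and 10 lower, against 77.8% of all genes (33.8% higher and 44.0% lower).

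**Figure D1:**
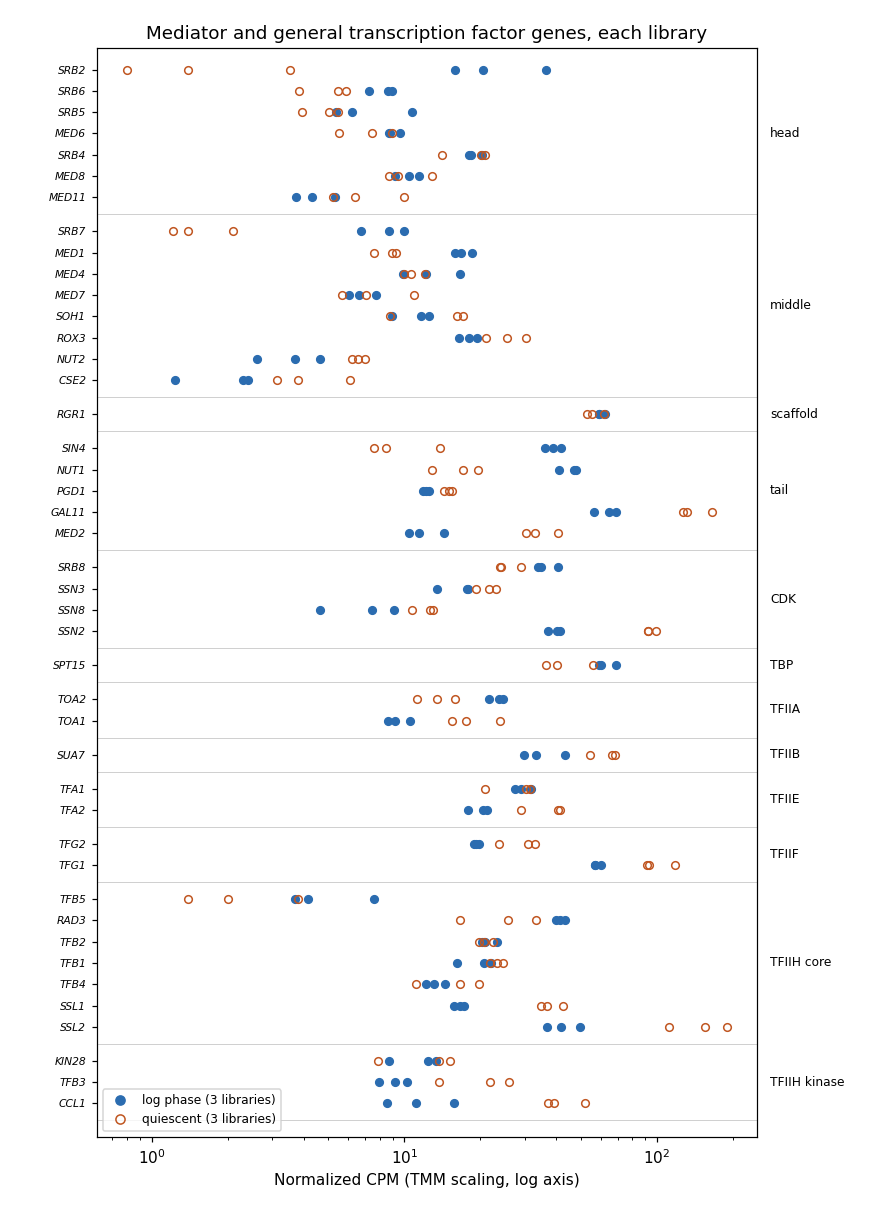
Normalized CPM (log axis) of each gene in each of the 6 libraries, grouped by module, with filled points for log-phase and open points for quiescent libraries. The groups separate widely for SRB2, SRB7, SIN4, NUT1, MED2, GAL11, SSN2, SSL2 and CCL1, and overlap for RGR1, SRB4 and TFB2.

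**Figure D2:**
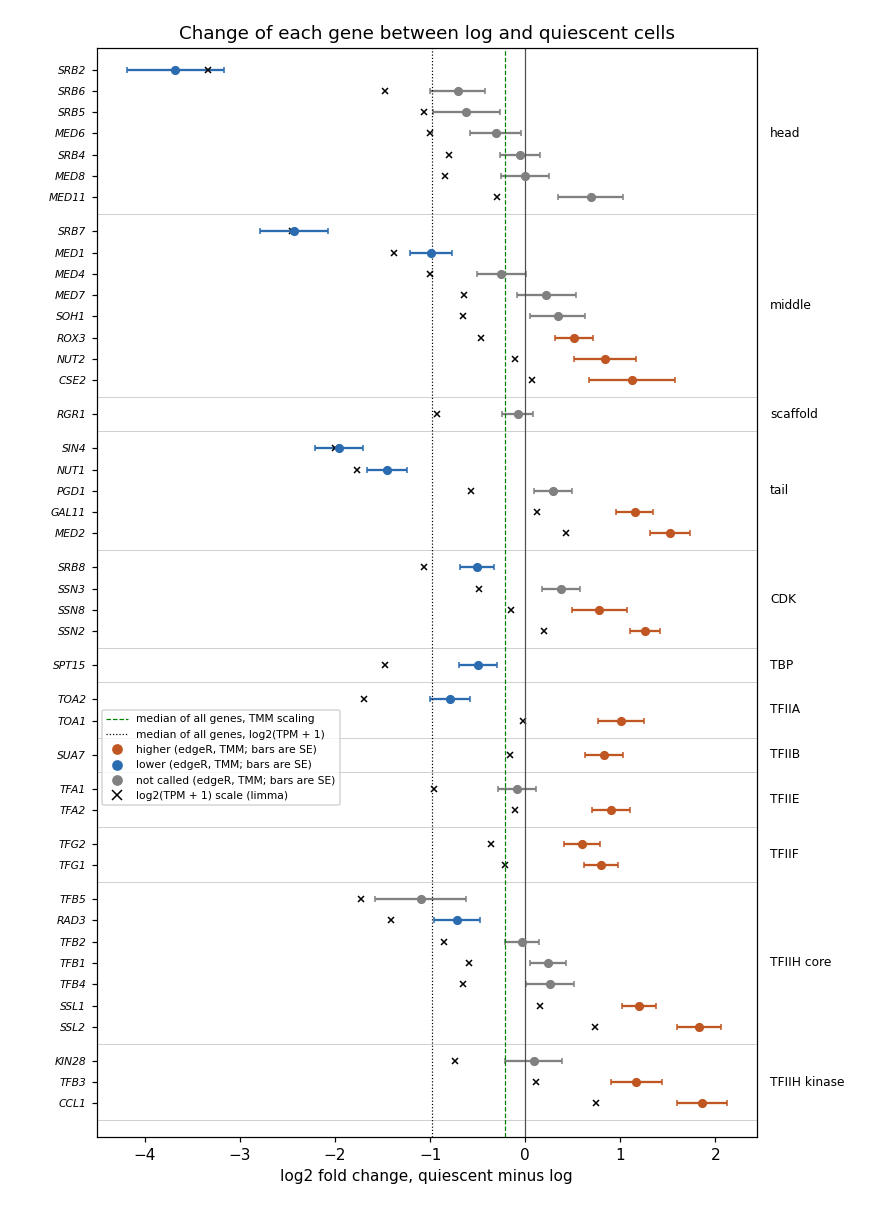
Log2 fold change of each gene, quiescent minus log, with SE bars under TMM scaling (points coloured by call) and on the log2(TPM + 1) scale (crosses). The head, middle, tail, CDK module, TFIIA and TFIIH core hold members on both sides of the dashed median of all genes (-0.21). The crosses lie further left, where the median of all genes is -0.98, except that of SRB2 (-3.34 against -3.68). Those of SRB7 and SIN4 hardly move.

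Mediator and the basal factors were set against each other. Of the 25 Mediator genes, 7 rose and 6 fell (28.0% and 24.0%), with a median change of 0.00. Of the 18 basal factor genes, 9 rose and 3 fell (50.0% and 16.7%), with a median of 0.43. Of all genes tested, 31.8% rose and 41.0% fell, with a median of -0.21. The difference of the medians, Mediator minus basal, was -0.43, and leaving out 1 library moved it between -0.55 (without quiescent replicate 1) and -0.34 (without quiescent replicate 2). The median log2 CPM of the Mediator genes minus that of the basal genes, which needs no scaling between libraries, was -0.67, -0.75 and -0.67 in log replicates 1, 2 and 3. It was -1.26, -1.36 and -1.22 in quiescent replicates 1, 2 and 3. The balance was thus lower in every quiescent library than in every log library, by 0.59 on average, and no test is given because it is a score over chosen members. The count of Mediator genes that rose fell from 7 to 3 without log replicate 1 or quiescent replicate 1, and to 4 without log replicate 3 or quiescent replicate 3. The count of basal genes that fell went from 3 to 1 without log replicate 2, log replicate 3 or quiescent replicate 3.

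As sums, the Mediator genes held 494 ± 9.89 CPM in log and 562 ± 16.7 CPM in quiescent cells (SD, n = 3 each), and the basal genes held 450 ± 15.5 and 687 ± 94.6 CPM. The basal sum was 702, 774 and 586 CPM in quiescent replicates 1, 2 and 3, against 436, 447 and 467 CPM in the log libraries. As shares of all transcripts per length, both sums went the other way. They went from 163 ± 5.09 to 85.1 ± 19.9 TPM for Mediator and from 192 ± 15.5 to 124 ± 38.8 TPM for the basal factors. Highly counted genes weigh most in the CPM sums. Among them GAL11 (63.3 to 141 CPM), SSN2 (39.5 to 94.6 CPM) and SSL2 (42.7 to 152 CPM) rose, and NUT1 (45.3 to 16.5 CPM) and SIN4 (38.9 to 9.97 CPM) fell.

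The head module is the part of Mediator that grips the polymerase. In it, 0 of 7 genes rose and 1 fell (0.0% and 14.3%, beside 31.8% and 41.0% of all genes tested). That gene was SRB2 (Med20, YHR041C, chromosome VIII, 189131 to 189864), which had the largest change of the 43. It stood at 15.9, 20.5 and 36.4 CPM in log replicates 1, 2 and 3 and at 0.798, 1.40 and 3.54 CPM in the quiescent ones. Every quiescent library lay below every log library, and both groups were spread widely. The change was -3.68 (SE 0.51, adjusted p = 0.000102), and it rests on 8, 16 and 33 reads in the quiescent libraries. SRB2 holds an intron and its count covers the whole span, so spliced and unspliced RNA were not separated. Its start region is shown with those of the tail genes.

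The gene of the partner of Med20 in the head, SRB5 (Med18), was at -0.62 (SE 0.35, adjusted p = 0.136) and did not pass, but fell on the log2(TPM + 1) scale (-1.06, adjusted p = 0.00174). The log2 ratio of SRB5 to SRB2 reads was -1.35, -0.94 and -2.75 in log and 2.71, 1.46 and 0.5 in quiescent replicates 1, 2 and 3. The groups did not overlap and the mean shifted by 3.24 (exact two-sided permutation p = 0.1, the smallest that 3 against 3 libraries allow). Over the 12 pairs of partner genes compared in this way, the Benjamini-Hochberg adjusted p was 0.133 for each pair whose groups did not overlap, which was 9 of 12. How often pairs of other genes separate in this way was not tested, and the CPM of single genes did so for 77.8% of all genes. The count of 9 is therefore not read as a trait of partner genes.

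At the other end of the head, MED11 was at 5.32, 4.33 and 3.72 CPM in log and 6.39, 5.24 and 9.98 CPM in quiescent libraries. The groups overlapped and the change of 0.69 (SE 0.34, adjusted p = 0.099) did not pass, although it did without quiescent replicate 2 (0.87, adjusted p = 0.0487) and with protein-coding TMM, from protein-coding genes alone (0.90, adjusted p = 0.0413). On the log2(TPM + 1) scale MED11 had the opposite sign and did not pass (-0.30, adjusted p = 0.278). The scaffold gene of the head, SRB4 (Med17), was at -0.05 (SE 0.21), MED8 at 0.00 (SE 0.25), MED6 at -0.31 (SE 0.27) and SRB6 (Med22) at -0.71 (SE 0.29), and none of them passed. SRB6, whose groups did not overlap, passed with total-count scaling (-0.94, adjusted p = 0.0359) and with no filter (-0.86, adjusted p = 0.0253). On the log2(TPM + 1) scale these 4 fell, from -0.80 to -1.47, around the median of all genes there. RGR1 (Med14, YLR071C), the backbone that joins head, middle and tail, was at 62.3, 58.8 and 59.0 CPM in log and 55.2, 61.8 and 53.1 CPM in quiescent libraries. Its groups overlapped, and its change of -0.08 (SE 0.16, adjusted p = 0.673) did not pass, whereas it fell on the log2(TPM + 1) scale (-0.93, adjusted p = 0.00304).

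In the middle module, which extends along the polymerase, 3 of 8 genes rose and 2 fell (37.5% and 25.0%, beside 31.8% and 41.0% of all genes tested). SRB7 (Med21, YDR308C, chromosome IV, 1078027 to 1078449) stood at 10.0, 6.75 and 8.67 CPM in log and 2.10, 1.22 and 1.40 CPM in quiescent libraries. The groups were far apart, and the change was -2.43 (SE 0.36, adjusted p = 0.000187). MED1 fell as well, from 17.0 ± 1.34 to 8.58 ± 0.884 CPM (-0.99, SE 0.22, adjusted p = 0.00245).

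The 3 middle genes that rose had small or poorly counted changes. CSE2 (Med9) stood at 2.31, 2.41 and 1.24 CPM in log and 3.79, 3.14 and 6.12 CPM in quiescent libraries, on 17 to 57 reads. Its change was 1.12 (SE 0.45, adjusted p = 0.0458), and 0.07 on the log2(TPM + 1) scale. NUT2 (Med10) was at 0.84 (SE 0.33, adjusted p = 0.0424) and ROX3 (Med19) at 0.51 (SE 0.20, adjusted p = 0.0448), and both lay below 0 on the log2(TPM + 1) scale, at -0.11 and -0.47. The CSE2 call was lost without any 1 of log replicates 1, 2 and 3 and quiescent replicates 1 and 3 (0.85 to 1.28, adjusted p from 0.0568 to 0.165). The NUT2 call was lost without log replicate 1 or 3 or any quiescent replicate (0.71 to 0.90, adjusted p from 0.0643 to 0.102), and the ROX3 call without log replicate 1 or 2 or quiescent replicate 1 or 2 (0.37 to 0.51, adjusted p from 0.0762 to 0.149). With total-count scaling all 3 calls were lost (CSE2 0.83, adjusted p = 0.167; NUT2 0.59, adjusted p = 0.235; ROX3 0.30, adjusted p = 0.403), and so they were with no filter (0.97, 0.70 and 0.36, adjusted p = 0.0774, 0.0951 and 0.172). The other 3 middle genes, MED4 (-0.25), MED7 (0.22) and SOH1 (Med31, 0.34), did not pass. On the log2(TPM + 1) scale MED4 (-1.0, adjusted p = 0.0025) and MED7 (-0.64, adjusted p = 0.0305) fell, and SOH1 had the opposite sign without passing (-0.65, adjusted p = 0.0631).

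Of the 5 tail genes, 2 rose and 2 fell (40.0% each), near the 31.8% and 41.0% of all genes tested. MED2 and GAL11 (Med15), which with PGD1 (Med3) form the part of the tail that activators bind, rose, while SIN4 (Med16) and NUT1 (Med5) fell. MED2 (YDL005C, chromosome IV, 441014 to 442309) stood at 10.4, 14.4 and 11.4 CPM in log and 40.6, 32.8 and 30.4 CPM in quiescent libraries. The groups were far apart, with a change of 1.52 (SE 0.21, adjusted p = 0.000107). SIN4 (YNL236W, chromosome XIV, 206930 to 209854) stood at 41.9, 38.9 and 35.9 CPM in log and 8.48, 13.8 and 7.62 CPM in quiescent libraries. All 3 quiescent values lay far below the log values, with a change of -1.96 (SE 0.25, adjusted p = 5.28e-05).

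GAL11 (YOL051W, chromosome XV, 234940 to 238185), whose product activators bind, averaged 63.3 ± 6.19 CPM in log and 141 ± 21.2 CPM in quiescent cells (1.15, SE 0.19, adjusted p = 0.000314). NUT1 (YGL151W, chromosome VII, 217524 to 220922) went from 45.3 ± 3.66 to 16.5 ± 3.37 CPM (-1.45, SE 0.21, adjusted p = 0.00012). PGD1 was at 0.29 (SE 0.20, adjusted p = 0.224) and did not pass. It passed as a rise with protein-coding TMM (0.50, adjusted p = 0.0498) and as a fall on the log2(TPM + 1) scale (-0.57, adjusted p = 0.0373). The falls of SIN4 and NUT1 held on the log2(TPM + 1) scale (-2.00 and -1.77), whereas MED2 (0.43) and GAL11 (0.12) kept their sign there and no longer passed.

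Per length, the 5 tail genes were near each other in log cells, between 4.31 TPM (MED2) and 9.00 TPM (GAL11). In quiescent cells they ran from 0.803 TPM (SIN4) to 10.2 TPM (GAL11), and the ratio of the highest to the lowest went from 2.09 to 12.6. Of the tail's summed TPM, GAL11 held 29.7% ± 2.80 in log and 47.6% ± 3.50 in quiescent cells, and MED2 held 14.2% ± 2.50 and 29.5% ± 4.73 (SD, n = 3 each). SIN4 held 20.2% ± 0.932 and 3.70% ± 0.924, and NUT1 held 20.3% ± 1.06 and 5.39% ± 1.37. GAL11 over SIN4 reads gave log2 ratios of 0.71, 0.54 and 0.85 in log and 3.94, 3.58 and 4.05 in quiescent replicates 1, 2 and 3. That pair was chosen after its values were seen and is given without a test. For MED2 and PGD1, a pair listed with the 12, the log2 ratio shifted by 1.23 without overlap (exact permutation p = 0.1, adjusted p = 0.133).

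The start regions of these tail genes and of SRB2 are shown because the members of a single module moved in opposite directions. Each runs from 250 bases before to 50 bases after the annotated gene start, which in this annotation is the start codon, and was read from the RefSeq R64 genome, 5′ to 3′. Capitals mark matches on either strand to 5 motifs. The TATA box was searched as TATAAA. The stress element of Msn2 and Msn4, STRE, was searched as AGGGG. The core of PDS, the element bound by Gis1, was searched as AGGGAT. For PAC, an element of ribosome biogenesis genes, the letters were GATGAG. For RRPE, found in the same class of genes, they were AAATTTT. STRE and PDS share their first letters, and matches of different motifs may overlap.
MED2, chrIV:442260-442559, minus strand: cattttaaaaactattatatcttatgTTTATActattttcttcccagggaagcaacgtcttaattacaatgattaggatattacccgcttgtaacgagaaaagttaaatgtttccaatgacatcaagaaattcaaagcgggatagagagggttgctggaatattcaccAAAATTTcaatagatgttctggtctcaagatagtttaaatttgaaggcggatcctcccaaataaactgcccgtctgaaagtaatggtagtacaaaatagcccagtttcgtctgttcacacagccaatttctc
GAL11, chrXV:234690-234989, plus strand: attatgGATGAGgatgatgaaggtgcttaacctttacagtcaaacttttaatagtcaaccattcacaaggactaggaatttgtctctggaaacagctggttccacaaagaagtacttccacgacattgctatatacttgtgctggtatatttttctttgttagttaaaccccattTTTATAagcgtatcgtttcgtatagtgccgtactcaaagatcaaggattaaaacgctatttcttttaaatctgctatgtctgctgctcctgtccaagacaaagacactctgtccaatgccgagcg
SIN4, chrXIV:206680-206979, plus strand: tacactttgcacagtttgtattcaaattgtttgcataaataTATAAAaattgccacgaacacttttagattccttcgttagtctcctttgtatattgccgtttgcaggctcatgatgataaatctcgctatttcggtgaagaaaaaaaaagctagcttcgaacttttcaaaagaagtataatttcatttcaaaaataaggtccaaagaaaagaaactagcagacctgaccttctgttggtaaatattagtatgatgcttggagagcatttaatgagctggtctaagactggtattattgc
NUT1, chrVII:217274-217573, plus strand: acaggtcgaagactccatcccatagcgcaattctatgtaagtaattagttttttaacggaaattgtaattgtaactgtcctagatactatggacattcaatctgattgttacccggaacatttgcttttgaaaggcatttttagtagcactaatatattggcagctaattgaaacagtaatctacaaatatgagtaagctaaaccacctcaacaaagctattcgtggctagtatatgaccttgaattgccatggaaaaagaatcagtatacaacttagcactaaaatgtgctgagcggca
SRB2, chrVIII:189815-190114, minus strand: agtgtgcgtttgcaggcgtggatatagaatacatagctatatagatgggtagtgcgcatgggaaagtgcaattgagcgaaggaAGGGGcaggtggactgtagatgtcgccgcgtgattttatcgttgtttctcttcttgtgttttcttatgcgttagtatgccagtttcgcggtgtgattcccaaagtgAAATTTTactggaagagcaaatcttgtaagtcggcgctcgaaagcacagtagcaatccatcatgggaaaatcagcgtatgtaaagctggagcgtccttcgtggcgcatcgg

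The TATA letters occurred in MED2 and GAL11, which rose, and in SIN4, which fell, and not in NUT1 or SRB2, which fell. Over the 43 windows the TATA letters were in 16, STRE in 10, PAC in 10, RRPE in 8 and PDS in 1. Over the 5608 windows of all genes tested the shares were 44.5%, 21.9%, 20.3%, 23.7% and 9.42%. Among the 16 members that rose, the TATA letters were in 8, STRE in 4, PAC in 7, RRPE in 5 and PDS in 1. Among the 9 that fell they were in 4, 3, 1, 1 and 0. These are counts of letters and do not show that a factor binds.

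**Figure D3:**
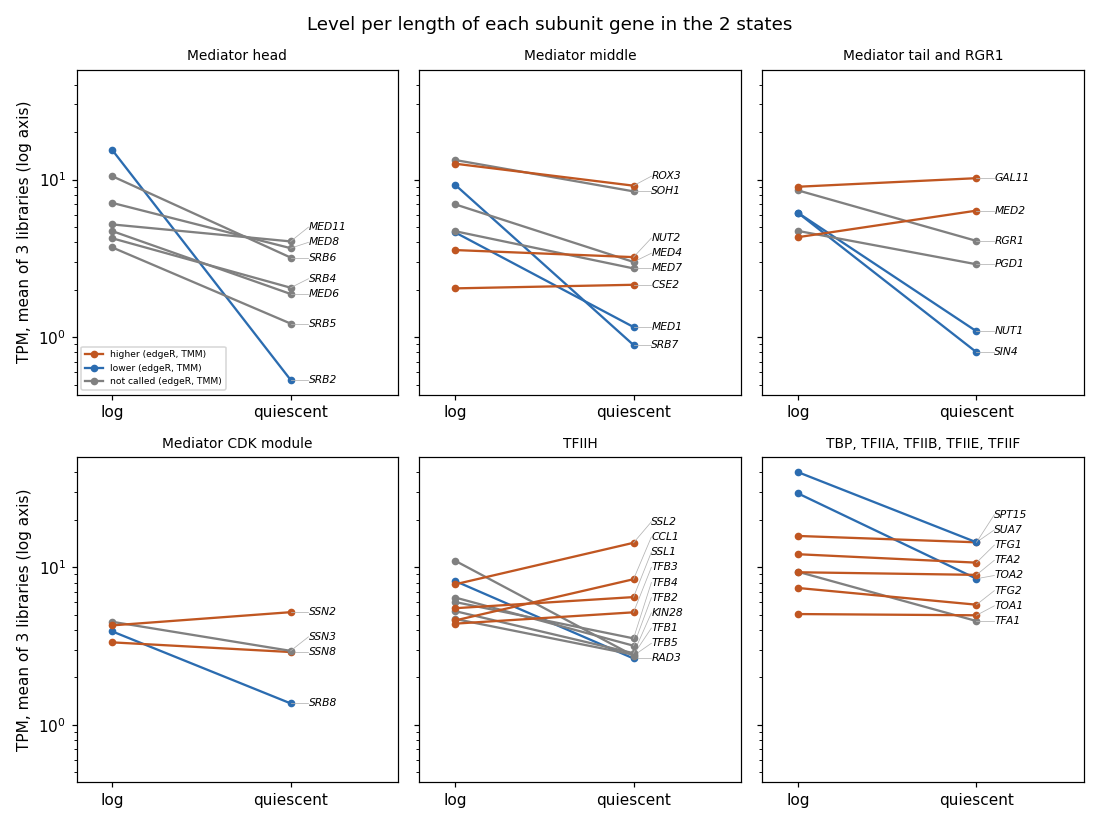
Mean TPM (log axis) of each subunit gene in log and quiescent cells, 1 panel per module or group of factors, coloured by the call under TMM scaling. The lines of the tail genes fan out from 4.31 to 9.00 TPM in log cells to 0.803 to 10.2 TPM in quiescent cells, and most lines of all panels slope down.

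In the CDK module 2 of 4 genes rose and 1 fell (50.0% and 25.0%, beside 31.8% and 41.0% of all genes tested). Per length its genes lay between 3.34 and 4.51 TPM in log cells, a ratio of 1.35, and the ratio was 3.78 in quiescent cells. SSN2 (Med13, YDR443C, chromosome IV, 1345676 to 1349938), the large subunit that tethers the module to the core, stood at 37.2, 41.3 and 40.1 CPM in log and 99.4, 92.3 and 92.0 CPM in quiescent libraries. The libraries of each group lay close together and the groups were far apart, with a change of 1.26 (SE 0.16, adjusted p = 6.52e-05) and 0.20 on the log2(TPM + 1) scale. SRB8 (Med12, YCR081W, chromosome III), the other large subunit, which activates the kinase, stood at 40.7, 34.8 and 33.9 CPM in log and 23.9, 24.2 and 28.9 CPM in quiescent libraries. It fell without overlap, by a small change of -0.51 (SE 0.18, adjusted p = 0.0291).

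SRB8 over SSN2 reads gave log2 ratios of 0.13, -0.25 and -0.24 in log and -2.05, -1.93 and -1.67 in quiescent libraries. The ratio shifted by -1.76 with no overlap (exact permutation p = 0.1, adjusted p = 0.133). The kinase gene SSN3 (Cdk8) stood at 17.9, 17.7 and 13.5 CPM in log and 19.3, 23.1 and 21.6 CPM in quiescent libraries, and its change of 0.38 (SE 0.20, adjusted p = 0.12) did not pass. It passed as a rise with protein-coding TMM (0.59, adjusted p = 0.0261) and had the opposite sign, without passing, on the log2(TPM + 1) scale (-0.49, adjusted p = 0.0739). The cyclin gene SSN8 stood at 7.42, 9.08 and 4.66 CPM in log and 13.0, 10.7 and 12.7 CPM in quiescent libraries, and rose by a change of 0.78 (SE 0.29, adjusted p = 0.036), although it lay at -0.15 on the log2(TPM + 1) scale. The SSN8 call was lost without log replicate 1 or 3 or quiescent replicate 1 or 3 (0.61 to 0.82, adjusted p from 0.0599 to 0.0878), with total-count scaling (0.53, adjusted p = 0.221) and with no filter (0.63, adjusted p = 0.0845). The SRB8 call was lost without any 1 library except quiescent replicate 3 (-0.54 to -0.42, adjusted p from 0.0514 to 0.13), with protein-coding TMM (-0.30, adjusted p = 0.172), with median-of-ratios size factors (-0.45, adjusted p = 0.0514) and in DESeq2 (-0.45, adjusted p = 0.0605).

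The basal factors begin with TBP. SPT15 (YER148W, chromosome V, 465303 to 466025), which encodes it, was the most abundant of the 43 genes per length in log cells, at 40.1 TPM, and was at 14.4 TPM in quiescent cells. It stood at 60.3, 59.0 and 68.7 CPM in log and 40.2, 55.8 and 36.4 CPM in quiescent libraries. The groups were next to each other without overlap, and the change of -0.50 (SE 0.20, adjusted p = 0.0486) only just passed. The call was lost without any 1 library except quiescent replicate 2 (-0.55 to -0.34, adjusted p from 0.0775 to 0.222). It was lost too with median-of-ratios size factors (-0.45, adjusted p = 0.0937), protein-coding TMM (-0.30, adjusted p = 0.198), only genes of 10 TPM or more (-0.02, adjusted p = 0.922) and DESeq2 (-0.45, adjusted p = 0.111).

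TFIIB went the other way. SUA7 (YPR086W, chromosome XVI, 710101 to 711138), its only gene, stood at 29.9, 33.2 and 43.2 CPM in log and 68.4, 66.6 and 54.3 CPM in quiescent libraries. Every quiescent library was above every log library, with a change of 0.83 (SE 0.20, adjusted p = 0.00409), although it lay at -0.16 on the log2(TPM + 1) scale and did not pass with total-count scaling (0.64, adjusted p = 0.0719). As a log2 ratio of reads, SPT15 over SUA7 was 1.01, 0.83 and 0.67 in log and -0.77, -0.26 and -0.58 in quiescent libraries, a shift of -1.37 without overlap (exact permutation p = 0.1, adjusted p = 0.133). Per length the genes were at 40.1 and 15.8 TPM in log cells and both at 14.4 TPM in quiescent cells.

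TFIIA, which steadies TBP on the DNA, has a large and a small subunit, and their genes moved in opposite directions. TOA1 (large, YOR194C) stood at 9.17, 10.5 and 8.60 CPM in log and 15.5, 17.6 and 24.0 CPM in quiescent libraries, and rose by 1.01 (SE 0.24, adjusted p = 0.00373), with -0.02 on the log2(TPM + 1) scale. TOA2 (small, YKL058W) stood at 21.7, 23.7 and 24.7 CPM in log and 11.2, 15.9 and 13.5 CPM in quiescent libraries, a change of -0.79 (SE 0.21, adjusted p = 0.0066). Neither gene's groups overlapped. Per length, TOA2 was 5.81 times as high as TOA1 in log cells (29.4 against 5.05 TPM), and the ratio was 1.71 in quiescent cells (8.46 against 4.96 TPM). The TOA2 call did not hold among genes of 10 TPM or more (-0.31, adjusted p = 0.269).

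In TFIIE, whose 2 subunits recruit TFIIH, the large subunit gene TFA1 stood at 31.6, 27.4 and 29.1 CPM in log and 30.4, 31.4 and 20.8 CPM in quiescent libraries. Its groups overlapped and the change of -0.09 (SE 0.20, adjusted p = 0.706) did not pass, whereas it fell on the log2(TPM + 1) scale (-0.96, adjusted p = 0.00561). The small subunit gene TFA2 stood at 17.9, 21.2 and 20.5 CPM in log and 40.6, 41.4 and 28.9 CPM in quiescent libraries. It rose by 0.90 (SE 0.20, adjusted p = 0.00267), with -0.11 on the log2(TPM + 1) scale, and did not pass with total-count scaling (0.70, adjusted p = 0.0546). The log2 ratio of TFA1 to TFA2 reads shifted by -0.99, from 0.82, 0.37 and 0.50 to -0.42, -0.40 and -0.47, without overlap (exact permutation p = 0.1, adjusted p = 0.133).

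In TFIIF, which escorts the polymerase to the promoter, both genes counted here, TFG1 and TFG2, rose. TAF14 was counted with the TFIID subunit genes and not with TFIIF. TAF14 fell from 28.7 to 13.1 CPM (-1.13, SE 0.25, adjusted p = 0.00237), with -1.9 on the log2(TPM + 1) scale. The rises of TFG1 and TFG2 are therefore not read as a rise of the whole factor. TFG1 stood at 57.0, 56.9 and 60.2 CPM in log and 92.9, 118 and 91.5 CPM in quiescent libraries, a rise of 0.80 (SE 0.18, adjusted p = 0.00238). TFG2 stood at 19.7, 19.2 and 18.9 CPM in log and 32.8, 31.0 and 23.8 CPM in quiescent libraries, a rise of 0.60 (SE 0.19, adjusted p = 0.0165). Both lay below 0 on the log2(TPM + 1) scale, at -0.21 and -0.36, and neither passed with total-count scaling (0.57, adjusted p = 0.0999, and 0.40, adjusted p = 0.269). The TFG2 call was lost without log replicate 1 or 2 or quiescent replicate 1 (0.51 to 0.62, adjusted p from 0.051 to 0.0538) and with no filter (0.46, adjusted p = 0.0776). The log2 ratio of TFG1 to TFG2 reads was 1.53, 1.57 and 1.67 in log and 1.5, 1.92 and 1.94 in quiescent libraries, a shift of 0.20 with overlap (exact permutation p = 0.4, adjusted p = 0.436).

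**Figure D4:**
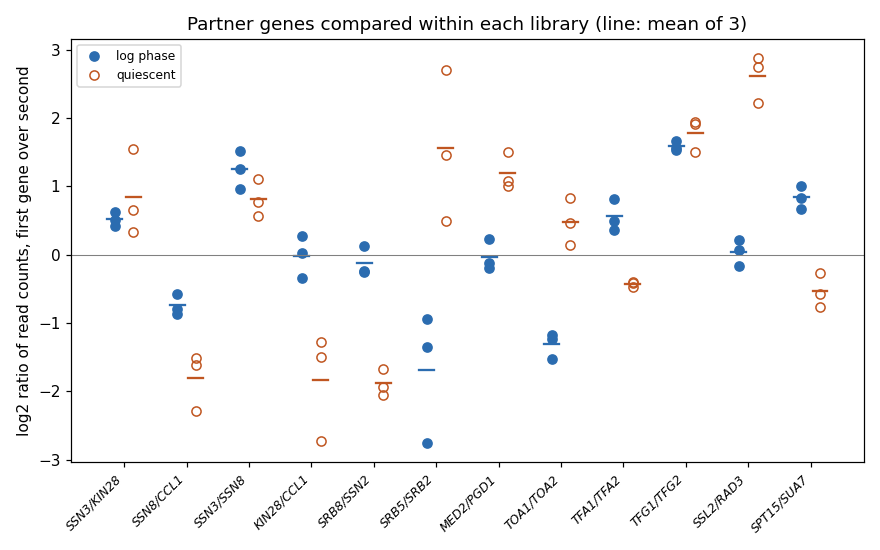
Log2 ratio of read counts between partner genes in each library, the first gene over the second, for 12 pairs, with a line at the mean of 3 libraries. The log and quiescent libraries do not overlap in 9 pairs and overlap for SSN3/KIN28, SSN3/SSN8 and TFG1/TFG2. Pairs of other genes were not compared. Only the shift between the states, not the height, compares the genes because reads are not divided by length.

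TFIIH has a core that opens DNA and also serves in nucleotide excision repair, and a kinase part that phosphorylates the polymerase. Of its 10 genes, 4 rose and 1 fell (40.0% and 10.0%, beside 31.8% and 41.0% of all genes tested), and 5 did not pass. Of its ATPase genes, SSL2 rose and RAD3 fell. SSL2 (YIL143C, chromosome IX, 80510 to 83041), the translocase that opens promoters, stood at 41.7, 36.7 and 49.8 CPM in log and 155, 189 and 112 CPM in quiescent libraries. The groups were far apart, with a change of 1.83 (SE 0.23, adjusted p = 5.64e-05) and 0.73 on the log2(TPM + 1) scale (adjusted p = 0.0508). RAD3 (YER171W, chromosome V, 527082 to 529418), the helicase needed for repair, stood at 39.7, 41.3 and 43.1 CPM in log and 33.2, 25.7 and 16.6 CPM in quiescent libraries. The groups did not overlap, and the quiescent values were spread widely. Its change was -0.72 (SE 0.24, adjusted p = 0.0238), and the call was lost without log replicate 2 or 3 or quiescent replicate 3 (-0.72 to -0.45, adjusted p from 0.0549 to 0.0869) and with protein-coding TMM (-0.51, adjusted p = 0.0749).

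The log2 ratio of SSL2 to RAD3 reads was 0.07, -0.17 and 0.21 in log and 2.22, 2.88 and 2.75 in quiescent replicates 1, 2 and 3. The shift of 2.58 was the largest of the 12 pairs after SRB5/SRB2, without overlap (exact permutation p = 0.1, adjusted p = 0.133). Per length, SSL2 and RAD3 were at 7.80 and 8.18 TPM in log cells and at 14.3 and 2.64 TPM in quiescent cells. Their start regions are shown because the genes stood at near levels in log cells and moved apart, with the same capitals as above.
SSL2, chrIX:82992-83291, minus strand: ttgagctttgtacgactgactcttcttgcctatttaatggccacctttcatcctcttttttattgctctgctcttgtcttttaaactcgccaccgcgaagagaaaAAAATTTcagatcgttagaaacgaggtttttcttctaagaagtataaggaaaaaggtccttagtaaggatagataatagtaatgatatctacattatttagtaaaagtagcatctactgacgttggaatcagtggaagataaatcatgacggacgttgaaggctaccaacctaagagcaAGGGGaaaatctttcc
RAD3, chrV:526832-527131, plus strand: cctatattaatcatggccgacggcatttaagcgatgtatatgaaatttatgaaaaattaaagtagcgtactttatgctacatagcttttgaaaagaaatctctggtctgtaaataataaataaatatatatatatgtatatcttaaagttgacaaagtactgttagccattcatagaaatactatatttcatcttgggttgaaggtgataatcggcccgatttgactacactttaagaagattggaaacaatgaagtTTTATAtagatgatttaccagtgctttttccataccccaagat

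Neither window held the TATA letters ahead of the start codon. The AGGGG in SSL2 and the TTTATA in RAD3 lie after it.

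Among the other core genes of TFIIH, SSL1 rose from 16.5 ± 0.706 to 38.0 ± 4.04 CPM (1.20, SE 0.18, adjusted p = 0.000166), with 0.16 on the log2(TPM + 1) scale. TFB1 (0.24), TFB2 (-0.03) and TFB4 (0.26) did not pass, whereas all 3 fell on the log2(TPM + 1) scale (-0.59, -0.85 and -0.65, adjusted p = 0.0313, 0.00473 and 0.024). TFB5, the smallest subunit, had the lowest change of the core. It stood at 3.71, 4.16 and 7.58 CPM in log and 3.79, 2.01 and 1.40 CPM in quiescent libraries, on 13 to 104 reads. The groups overlapped and the change of -1.10 (SE 0.48, adjusted p = 0.0635) did not pass, although it did without quiescent replicate 1 (-1.58, adjusted p = 0.0226), with total-count scaling (-1.22, adjusted p = 0.0438), with no filter (-1.24, adjusted p = 0.0379), in DESeq2 (-1.06, adjusted p = 0.0494) and on the log2(TPM + 1) scale (-1.73, adjusted p = 0.00025).

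In the kinase part of TFIIH, the cyclin gene CCL1 (YPR025C, chromosome XVI, 613377 to 614558) stood at 11.1, 15.7 and 8.52 CPM in log and 36.9, 52.1 and 39.1 CPM in quiescent libraries. The groups were far apart. Its change of 1.86 (SE 0.26, adjusted p = 0.000107) was the highest of the 43, and it was 0.74 on the log2(TPM + 1) scale (adjusted p = 0.024). The assembly subunit gene TFB3 rose from 9.16 ± 1.17 to 20.5 ± 6.22 CPM (1.17, SE 0.27, adjusted p = 0.00323), with 0.11 on the log2(TPM + 1) scale. The kinase gene KIN28 (YDL108W, chromosome IV, 267698 to 268699) stood at 13.3, 12.4 and 8.67 CPM in log and 15.2, 7.86 and 13.7 CPM in quiescent libraries. Its groups overlapped, and its change of 0.09 (SE 0.30, adjusted p = 0.794) did not pass, whereas it fell on the log2(TPM + 1) scale (-0.74, adjusted p = 0.0197). As a log2 ratio of reads, KIN28 over CCL1 was 0.27, -0.34 and 0.02 in log and -1.28, -2.72 and -1.5 in quiescent libraries, a shift of -1.82 without overlap (exact permutation p = 0.1, adjusted p = 0.133).

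The kinase and cyclin of the CDK module were compared with those of TFIIH. The log2 ratio of the cyclin genes, SSN8 to CCL1, was -0.57, -0.79 and -0.87 in log and -1.51, -2.28 and -1.62 in quiescent libraries, a shift of -1.06 without overlap (exact permutation p = 0.1, adjusted p = 0.133). That of the kinase genes, SSN3 to KIN28, was 0.42, 0.51 and 0.63 in log and 0.34, 1.55 and 0.65 in quiescent libraries. The groups overlapped, and the shift of 0.32 (exact permutation p = 0.6, adjusted p = 0.6) was -0.03 without quiescent replicate 2. Within the CDK module the ratio of kinase to cyclin, SSN3 to SSN8, shifted by -0.43 with overlap (exact permutation p = 0.2, adjusted p = 0.24).

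Across modules, the levels of subunit genes lay further apart in quiescent cells in the tail, the CDK module, the middle and TFIIH, and overlapped between the states in the head and over all basal factors. The spread was taken as the SD of log2 TPM among the genes of a group in each library, which no scaling between libraries can change. For the tail it was 0.54, 0.30 and 0.44 in log and 1.72, 1.48 and 1.56 in quiescent replicates 1, 2 and 3. For the CDK module it was 0.20, 0.16 and 0.42 in log and 0.85, 0.81 and 0.69 in quiescent libraries, and for TFIIH 0.35, 0.28 and 0.69 against 0.78, 1.05 and 0.88. All quiescent libraries lay above all log libraries in these 3 groups. So they did, only just, for the 8 middle genes (0.96, 0.74 and 1.20 against 1.22, 1.25 and 1.23). For the head the values were 0.61, 0.65 and 1.04 against 1.42, 1.00 and 0.85, which overlap, and for the 18 basal genes 0.87, 0.83 and 1.05 against 0.81, 1.05 and 0.92. Low counts widen such a spread, and the part of counting noise in it was not tested. Groups of other genes were not measured in this way, so the wider spread is not read as a trait of these modules.

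**Figure D5:**
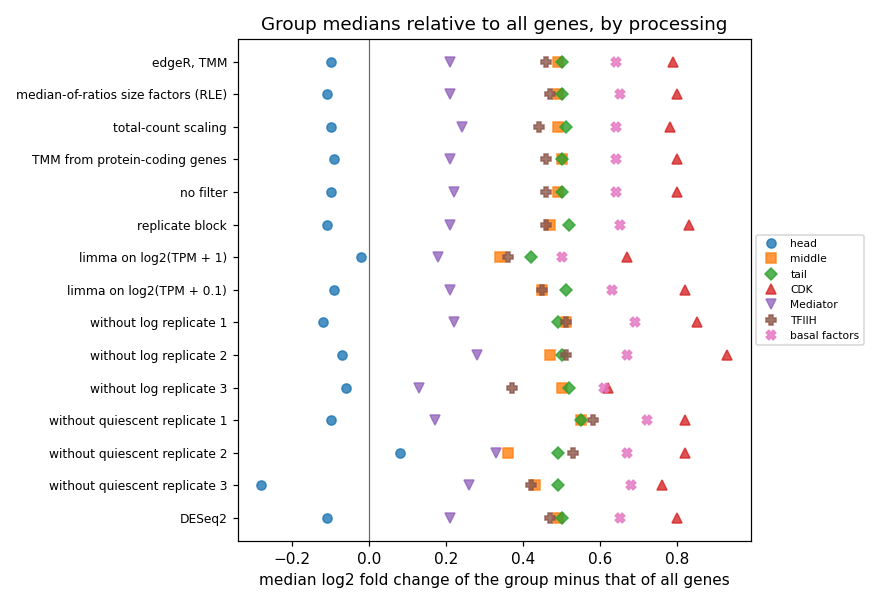
Median log2 fold change of each group of genes minus that of all genes, for the edgeR test with TMM and 14 other ways of processing the same libraries (the 10 TPM filter, which tested 7 members, is not drawn). Basal factors lie from 0.50 to 0.72 and Mediator from 0.13 to 0.33 above all genes, and the head lies below all genes except without quiescent replicate 2 (0.08).

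Relative to the median of all genes, the CDK module's median lay 0.79 higher, the basal factors' 0.64, the tail's 0.50, the middle's 0.49, and TFIIH's 0.46, while the head's difference was -0.10. On the log2(TPM + 1) scale, where all genes had a median of -0.98, the same differences were 0.67, 0.50, 0.42, 0.34, 0.36 and -0.02. Balances of median log2 CPM did not all follow this order. Tail minus head went from a mean of 1.98 in log to 1.27 in quiescent cells (-0.71). CDK module minus basal factors went from 0.24 to -0.25 (-0.48). Both ran against the medians, without overlap. Mediator minus basal factors (-0.59), CDK module minus other Mediator genes (0.31) and middle minus head (0.18) went with them. So did CDK module minus TFIIH kinase (-0.91) and TFIIH core minus other basal factors (-0.13). The states overlapped for middle minus head and for TFIIH core minus other basal factors, so these balances show no clear shift. Over the 43 genes, the change correlated weakly with gene length (Pearson's r = 0.13, Spearman's rho = 0.12), and with the log-phase TPM at r = -0.33 (rho = -0.31), where all 5608 genes gave r = -0.65. These are correlations across genes of the same libraries, in which the log-phase level enters both measures, and are given as descriptions.

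Other genes of the initiation machinery gave context, beside the 31.8% of all genes tested that rose and the 41.0% that fell. Of 14 TFIID subunit genes (TAFs), which hold TBP in TFIID, 3 rose and 6 fell (median -0.34), from TAF13 (0.99, SE 0.30, and -0.00 on the log2(TPM + 1) scale) to TAF11 (-1.67, SE 0.30). Of 14 genes of SAGA, a coactivator that also delivers TBP, 3 rose and 2 fell (median -0.16), from SUS1 (0.93, SE 0.36, but -0.05 on the log2(TPM + 1) scale) to the scaffold gene TRA1 (-1.74, SE 0.19). Of 3 TBP regulator genes 2 rose, led by NCB2 of the NC2 complex (1.16, SE 0.19, and 0.13 on the log2(TPM + 1) scale). Of 8 genes of other kinases and phosphatases of the polymerase tail, 1 rose and 4 fell, from CTK1 (0.82, SE 0.25, but -0.15 on the log2(TPM + 1) scale) to BUR2 (-1.45, SE 0.28). Of 3 mRNA capping enzyme genes, whose products bind the tail that Kin28 phosphorylates, 1 fell, ABD1 (-0.75, SE 0.22). On the log2(TPM + 1) scale 0 genes of these lists rose, beside 14.2% of all genes tested. There 9 TAF genes, 10 SAGA genes, 6 kinase or phosphatase genes, 3 capping enzyme genes and 0 TBP regulator genes fell, beside 60.1%.

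The 9 activator genes with known links to Mediator, through binding to Gal11 or phosphorylation by Ssn3, gave 5 rises and 1 fall (median 1.07). Of all genes tested, 31.8% rose and 41.0% fell. SIP4, an activator of gluconeogenic genes, went from 4.29 to 261 CPM (5.93, SE 0.39, adjusted p = 5.2e-07). STE12, the activator of the mating response, fell from 38.8 to 19.7 CPM (-0.98, SE 0.18, adjusted p = 0.000879). On the log2(TPM + 1) scale 2 of the 9 rose and 3 fell, beside 14.2% and 60.1% of all genes tested.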

How the data were processed

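Total RNA was depleted of ribosomal RNA and read on an Ion Proton, per the labels' protocols. The file deposited by the authors holds a raw read count for each feature and its length in bases. The submitters' processing notes name build R64. Neither the aligner nor the counter nor any use of strand is given in the sources used here, so sense and antisense reads cannot be told apart. The feature length was 1 base below the R64 gene span, introns included, in all 43 genes. A further 6 columns of per-sample values, the authors' TPM, were not used, and TPM was computed from the deposited counts and lengths.

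Features averaging 1 TPM or more were tested (7305 of 9891, with 43 of the 43 genes) by the edgeR 4.0.16 quasi-likelihood test in R 4.3.3, two-sided, with TMM scaling, no covariate and Benjamini-Hochberg adjustment over all tested rows. SE was the log2 fold change divided by the root of its F statistic. Pairs of partner genes were compared by exact permutation of the 6 libraries on log2 ratios of counts, with 0.5 reads added, adjusted over 12 pairs. The scripts were tested on simulated data. The test called 44% of 50 simulated 2-fold rises, 36% of 50 simulated 2-fold falls and 100% of 4-fold changes. A gene that did not pass is therefore not shown to be unchanged.

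All 43 genes may be named. Values in every library were given for the highest and lowest member of each module, TBP, TFIIB, RGR1 and both kinases and cyclins, and other lists by their called members of largest rise and fall. RGR1 was kept apart from the tail. The members and lists were chosen with earlier results of these data known. The replicate numbers did not pair the libraries. Alternatives were other scalings, filters and pseudocounts, limma 3.58.1 on log2(TPM + 1), DESeq2 1.42.0, a replicate block and each library left out.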

Additional observations from a re-analysis of the deposited data

How the results depend on the processing

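Counts are rises and falls. With total-count scaling 8 of the 43 genes rose and 11 fell (Mediator 3 and 7, basal factors 5 and 4), and the medians were -0.01 over all 43, -0.20 for Mediator, 0.20 for basal factors, 0.33 for the CDK module and -0.01 for TFIIH. With TMM from protein-coding genes 1 basal gene fell, and these medians were 0.45, 0.21, 0.64 and 0.79 (the first 4). With no filter 11 rose and 11 fell (Mediator 3 and 7, basal factors 8 and 4), and the median of all 43 was 0.09. Among rows of 10 TPM or more, which hold 7 of the 43, 4 rose and 0 fell (Mediator 1 and 0, basal factors 3 and 0), beside 669 and 1001 of all genes. The medians there were 0.99 over all members, 0.91 for Mediator and 1.28 for basal factors. The only Mediator genes left were ROX3 and SOH1, both of the middle, and no head, tail or CDK gene was left. TFIIH was left with SSL2 alone (2.31). SSL2 averaged 7.80 TPM in log and 14.3 TPM in quiescent cells, so it passed this filter only through its quiescent level. With limma on log2(TPM + 1), 1 rose and 24 fell (Mediator 0 and 15, basal factors 1 and 9), as with log2(TPM + 0.1), beside 799 and 781 rises of all genes. The medians were, in that order, -0.65 and -0.78 over all members, -0.80 and -1.01 for Mediator, -0.48 and -0.58 for basal factors, -1.0 and -1.3 for the head, -0.65 and -0.77 for the middle, -0.57 and -0.71 for the tail, -0.32 and -0.40 for the CDK module, and -0.62 and -0.76 for TFIIH. Mediator minus basal was -0.32 with log2(TPM + 1). On both scales the value was below 0 for these genes, which were at or above 0 with TMM: MED8 (0.00 with TMM; -0.84, -1.01), MED11 (-0.30, -0.35), MED7 (-0.64, -0.82), NUT2 (-0.11, -0.13), ROX3 (-0.47, -0.52), SOH1 (-0.65, -0.71), PGD1 (-0.57, -0.71), SSN3 (-0.49, -0.61), SSN8 (-0.15, -0.19), TOA1 (-0.02, -0.02), SUA7 (-0.16, -0.17), TFA2 (-0.11, -0.13), TFG1 (-0.21, -0.23), TFG2 (-0.36, -0.42), TFB1 (-0.59, -0.74), TFB4 (-0.65, -0.78) and KIN28 (-0.74, -0.92). Of these, MED8, MED7, PGD1, TFB1, TFB4 and KIN28 passed as falls on both scales. Leaving out 1 library gave 11 to 15 rises and 6 to 8 falls among the 43, 3 to 6 Mediator rises, 1 to 3 basal falls, a Mediator minus basal median of -0.55 to -0.34, and an SSN3/KIN28 shift of -0.03 to 0.58. The replicate numbers did not pair the libraries (correlations of deviations 0.048, -0.087 and -0.034). With the replicate block 12 genes rose and 7 fell, 3 of the risers in Mediator. Of the 25 called genes, 6 kept their call in every setting that tested them (SRB2, MED1, SRB7, NUT1 and SIN4 lower, CCL1 higher). The causes were not tested. Counts of 8 to 2161 reads limit the least expressed genes.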
